A study of Mus musculus with 2 samples.

Results

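The genes described here are 10 genes of adrenal steroid synthesis and its control: Akr1b7, Mc2r, Star, Cyp11a1, Cyp11b1, Cyp21a1, Hsd3b1, Nr5a1, Nr0b1 and Fdx1. They were found as the non-control probes that carry one of these names, which gave 13 of the array's 39429 probes, for 10 of 31870 named genes. The set was proposed from the contrast described below, so the members' ratios are given as a description and carry no test. The data are 2 two-colour arrays of ureters from male NMRI mouse embryos at E13.5, each comparing 1 Tbx2-GOF with 1 control extract. Tbx2-GOF, in which the gene of the T-box repressor TBX2 is gained, had the genotype Tbx18(cre/+);Hprt(Tbx2/Y), and the control had the genotype Tbx18(+/+);Hprt(Tbx2/Y). The Tbx2 allele in Hprt, on the X chromosome, was therefore shared by both groups, and cre, placed at Tbx18 and so driven in the ureteric mesenchyme, was present in Tbx2-GOF embryos alone. Because the controls had no cre and 2 normal Tbx18 alleles, the presence of cre, the change of 1 Tbx18 allele and the expression of Tbx2 cannot be told apart. Tbx18 had log2 ratios of -0.31 and -0.59 (limma adjusted p = 0.266). No label states that the arrays hold RNA of different embryos, so a p-value reflects no more than how these arrays differ, possibly for technical reasons. Tbx2-GOF RNA was in the red channel on array 1 and in the green channel on array 2.

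Steroid synthesis in the adrenal cortex is driven by the pituitary hormone ACTH, which acts through the receptor Mc2r and cAMP. Cholesterol is carried into mitochondria by Star and cut by Cyp11a1, and Hsd3b1, Cyp21a1 and Cyp11b1 turn the product into corticosterone. Nr5a1 is the transcription factor that activates most of these genes, and Akr1b7 is an ACTH-responsive aldo-keto reductase that clears the aldehyde released when the cholesterol side chain is cut. Akr1b7 also marks renin-producing cells of the developing kidney.

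The probes through which the values below were read are shown first, as 30-base stretches of the 60-base designs. Akr1b7 is shown because its ratio stands apart from those of the other members, and Star and Cyp21a1 because each had 1 probe kept and 1 left out as dim. The remaining stretches are shown because they hold AATAAA, the hexamer of the polyadenylation signal, which is printed in capitals.
Akr1b7: gagatccgtgcatgatagattccttcgtct
Star, kept: ttgaagtcttaagccttcactgatatttat
Star, dim: ttctcaactggaagcaacactctatagtga
Cyp21a1, kept: cttctgcccagtAATAAAtggtctcttcag
Cyp21a1, dim: atgctgggcatgctagactccatggagcct
Cyp11b1: cttacctaccctAATAAAatataaactgca
Hsd3b1: gaagcaaaacaaaaacagcAATAAAtattg
Nr5a1: ctgcagccctgaAATAAAttttgcaattag
Fdx1, the probe not used for the gene value: ttcctaagctacAATAAAaagaaatatttt
AATAAA was found in 5 of the 13 member probes and in 12.6% of all probes. All 5 were kept, as were 11 of all 13 member probes and 26471 of the array's 39429 probes. Neither of the 2 dim probes held it, and neither did the kept probes of Akr1b7 and Star. Nothing is read from these counts. The kept and the dim probe of Cyp21a1 started 2199 bases apart, those of Star 5180 bases apart, and the 2 Fdx1 probes 5127 bases apart. Where the probes lie relative to exons and UTRs was not analysed here.

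Each value is a log2 ratio, Tbx2-GOF over control, per array after background correction and within-array loess. Gene means of the members are given with their SD (n = 2), and genes of other lists mostly by the mean alone. Processed signals are the scanner software's background-subtracted, dye-normalized intensities, and they describe a probe's brightness, not the amount of a transcript. The 153 negative control spots set the scale: their highest processed signals were 28.3 for the Tbx2-GOF channel and 29.6 for the control channel on array 1, and 15.4 and 18 on array 2. Tbx2 itself had log2 ratios of 0.04 and 0.56 (mean 0.30, SD 0.37; limma adjusted p = 0.711), from a probe for which it is not known whether it reads the Hprt allele. In bulk tissue, fewer cells of a type and less RNA per cell cannot be told apart.

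Akr1b7 had the highest ratio of all 21097 genes tested. Its 1 probe (mm9 chr6:34372905-34372964, plus strand) read 8977 against 585 in mean spot signal on array 1, and 6576 against 997 on array 2, with Tbx2-GOF named first. Local backgrounds were 92 and 27 on array 1, and 28 and 90 on array 2. Both Tbx2-GOF channels were far brighter than both control channels, whichever dye they carried. The processed signals were 2504 against 168 on array 1 and 1794 against 240 on array 2. All 4 lay above the highest negative control spot, so Akr1b7 was measured in control ureters too. The log2 ratio was 3.69 on array 1 and 2.85 on array 2, with a mean of 3.27 (SD 0.59). This is a 9.65-fold difference, from 12.9-fold on array 1 and 7.21-fold on array 2. The gene ranked 1 on array 1 and 2 on array 2.

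Mc2r, the ACTH receptor, was the other member with a higher Tbx2-GOF value on both arrays by more than 1.5-fold. Its probe (mm9, chromosome 18, 68566613 to 68566672) gave processed signals of 76.0 against 10.2 on array 1 and 45.4 against 9.36 on array 2. The Tbx2-GOF signals lay above the highest negative control spot on both arrays, and the control signals lay below it on both. In the control, the software's call of well above background was met on array 1 alone. The probe therefore passed the brightness filter through the Tbx2-GOF group, and the size of its ratio depends on how the dim control signal is treated. The log2 ratio was 1.5 and 1.04, with a mean of 1.27 (SD 0.33), against a control that was measured on 1 of 2 arrays. From the processed signals, without the offset that shrinks dim ratios, the log2 ratios were 2.90 and 2.28, with a mean of 2.59.

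**Figure D1:**
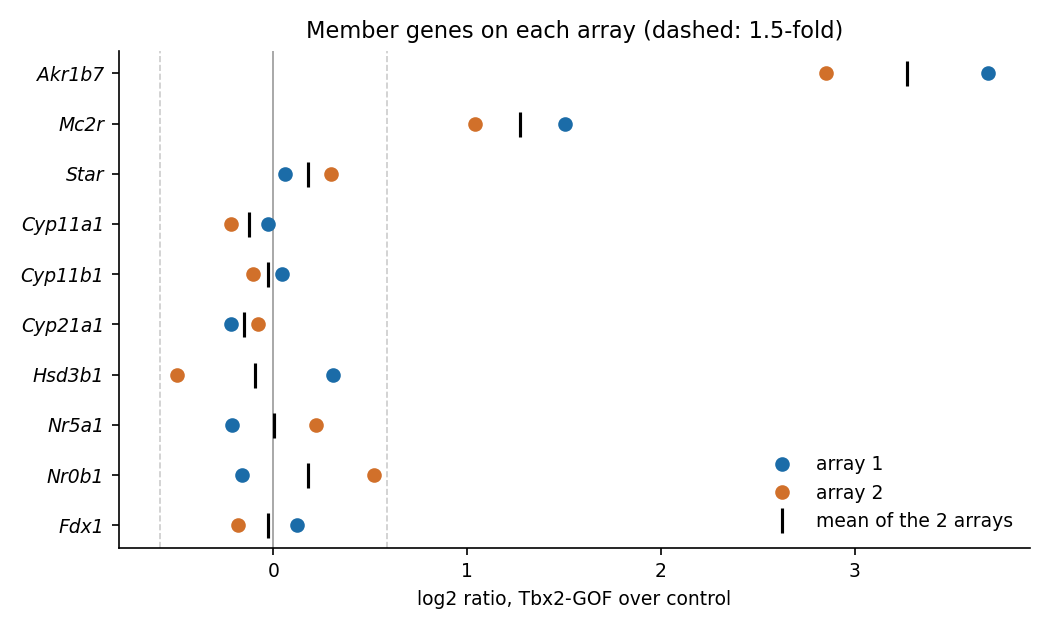
Log2 ratio of Tbx2-GOF over control (horizontal axis) for each member gene on array 1 and array 2 (points) and their mean (bars), with 1.5-fold marked by dashed lines. Akr1b7 at 3.69 and 2.85 and Mc2r at 1.5 and 1.04 lie past 1.5-fold on both arrays, and the other 8 genes lie between the lines on both.

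Of the 10 members, 2 passed limma's adjusted p under 0.05, both higher in Tbx2-GOF, against 0.64% of all genes tested in either direction and 0.36% in the higher direction, and no member was lower, against 0.28%. The same 2 were at least 1.5-fold higher on both arrays, against 0.825% of all genes. With the processed signals, median centring or the deposited table no member passed, and with the strict brightness filter Akr1b7 alone did. As these members were chosen from this contrast, nothing is read from those counts. The other 8 genes were under 1.5-fold on both arrays with the main settings, whose offset shrinks dim ratios. From the processed signals, Hsd3b1 had log2 ratios of 0.56 and -0.84, and Nr0b1 had -0.24 and 1.23. Both were past 1.5-fold on array 2 alone. With the main settings, 3 of the 10 members were higher on both arrays, 2 were lower on both and 5 changed sign between the arrays. The median log2 ratio was 0.05 on array 1 and 0.07 on array 2. Over all genes tested it was 0.002 and 0.003, and the sign was shared by the arrays for 51.2% of genes. The median of the members' means was -0.01 and became 0.02 with the software's processed signals. Without Akr1b7 and Mc2r the median of the 8 means was -0.03. The name adrenal cortex thus stands for the known roles of these genes: of the 8 members that define cortex cells, which leaves out Akr1b7 and Fdx1, Mc2r alone was past 1.5-fold on both arrays.

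Star, which moves cholesterol to the inner mitochondrial membrane, was read by 2 probes on chromosome 8. The kept probe (mm9 chr8:26925460-26925519) had processed signals of 26.2 against 24.0 on array 1 and 17.2 against 13.9 on array 2. Only 1 of these 4 signals lay above the highest negative control spot. The log2 ratios were 0.06 and 0.30, with a mean of 0.18 (SD 0.17). The dim probe (chr8:26920280-26920339) gave -0.05 and -0.04, with no channel above the highest negative control. Neither Star probe came near the ratio of Akr1b7 or Mc2r.

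Cyp11a1, the side-chain cleavage enzyme of the first committed step, was lower on both arrays by small amounts. Its probe, listed as spanning chr9:57874074-57874544 (mm9), gave 23.7 against 26.1 on array 1 and 27.6 against 37.2 on array 2. This gave log2 ratios of -0.03 and -0.22, with a mean of -0.12 (SD 0.13), and 2 of 4 signals lay above the highest negative control.

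Hsd3b1, the dehydrogenase that converts pregnenolone to progesterone, changed sign between the arrays. The processed signals (mm9 chr3:98656127-98656186) were 28.8 against 19.5 on array 1 and 26.7 against 47.9 on array 2. Its log2 ratios were 0.31 and -0.50, with a mean of -0.10 (SD 0.57). The red channel was the brighter one on both arrays, and the SD was larger than the mean.

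Cyp21a1, the hydroxylase between progesterone and deoxycorticosterone, had a kept probe (mm9 chr17:34938298-34938357) with processed signals of 43.3 against 49.1 and 54.8 against 60. All 4 lay above the highest negative control. The log2 ratios were -0.22 and -0.08, with a mean of -0.15 (SD 0.10). The dim probe (chr17:34940497-34940556) read 2.91 against 1.95 and 1.41 against 2.67, and only 0.555% of all probes were dimmer. The 2 designs for this gene thus differed, with 1 clearly measured and 1 not above background.

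Cyp11b1, which makes corticosterone in the last step, had processed signals of 29.3 against 29.5 on array 1 and 22.7 against 26.3 on array 2 (mm9 chr15:74665330-74665389). These corresponded to log2 ratios of 0.04 and -0.10, with a mean of -0.03 (SD 0.11). The groups were close on both arrays, and 3 of 4 signals lay above the highest negative control.

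Fdx1, the mitochondrial ferredoxin that passes electrons to Cyp11a1 and Cyp11b1 and is active in many tissues, was bright in both groups. The probe used for the gene (mm9 chr9:51756743-51756802) had processed signals of 6059 against 5410 on array 1 and 5908 against 7007 on array 2, and 91.7% of probes were dimmer. The log2 ratios were 0.12 and -0.18, with a mean of -0.03 (SD 0.22). The second probe (chr9:51751616-51751675) gave 0.22 and -0.29, with a mean of -0.04. Both probes were higher in red on both arrays: the sign followed the dye.

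**Figure D2:**
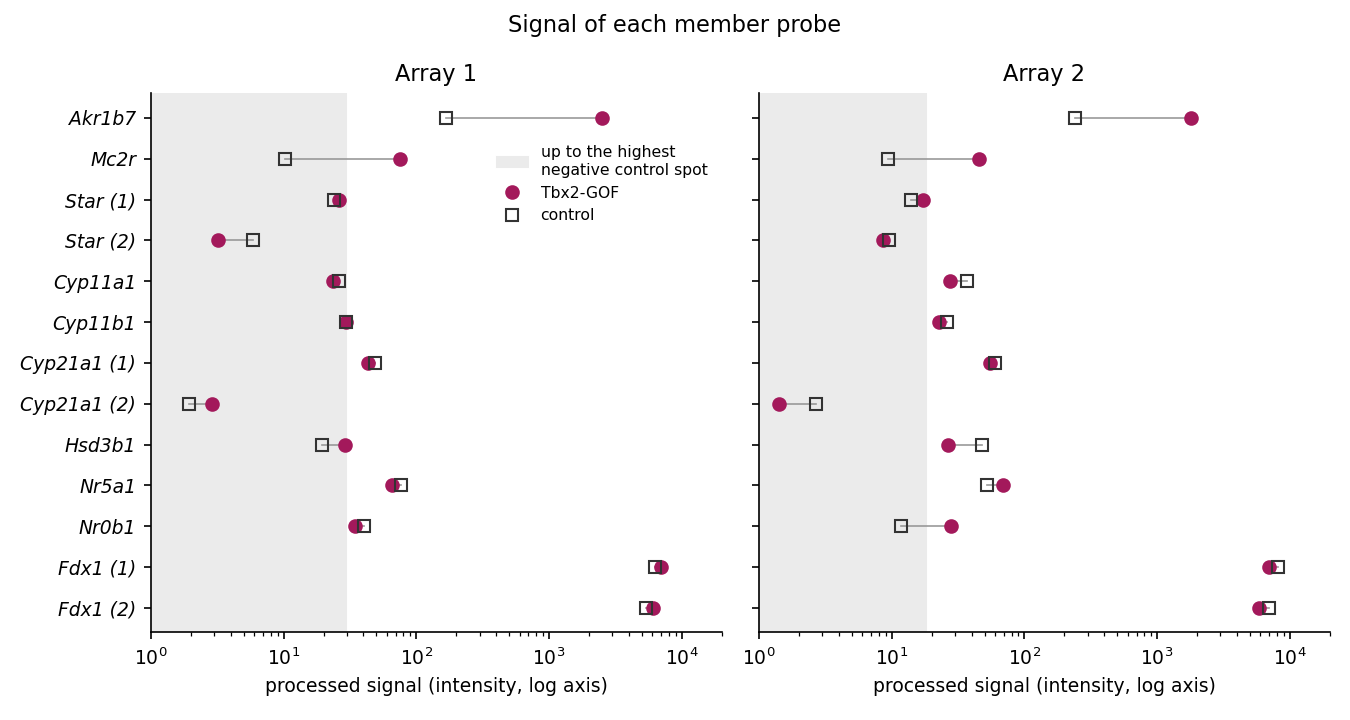
Processed signal (intensity, log axis) of each of the 13 member probes for Tbx2-GOF (filled circles) and control (open squares) on array 1 and array 2. The grey band ends at the highest negative control spot of either channel; (1) and (2) number the probes of 1 gene, and the kept probes of Star and Cyp21a1 are (1). Akr1b7 and Mc2r show the widest gaps on both arrays, and Fdx1 is bright in both groups.

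Nr5a1, the transcription factor that switches on the steroid enzyme genes, had processed signals of 65.5 against 76.8 on array 1 and 68.5 against 52.4 on array 2 (mm9 chr2:38548180-38548239). All 4 lay above the highest negative control. The log2 ratios were -0.21 and 0.22, with a mean of 0.00 (SD 0.31). Here green was the brighter channel on both arrays.

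Nr0b1, a nuclear receptor that holds Nr5a1 in check, was read by 10 spots of 1 probe (mm9 chrX:83441169-83441228). On array 1 the spots' log2 ratios ran from -0.28 to 0.03 and gave a value of -0.16. On array 2 they ran from 0.40 to 0.71 and gave 0.52. The spots of an array differed by SDs of 0.094 and 0.099, and the 2 arrays did not overlap, so the mean of 0.18 (SD 0.48) rests on arrays that disagreed in sign. The control channel was well above background in 10 of 10 spots on array 1 and in 2 of 10 on array 2. Like Mc2r, the probe passed the brightness filter through the Tbx2-GOF group.

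**Figure D3:**
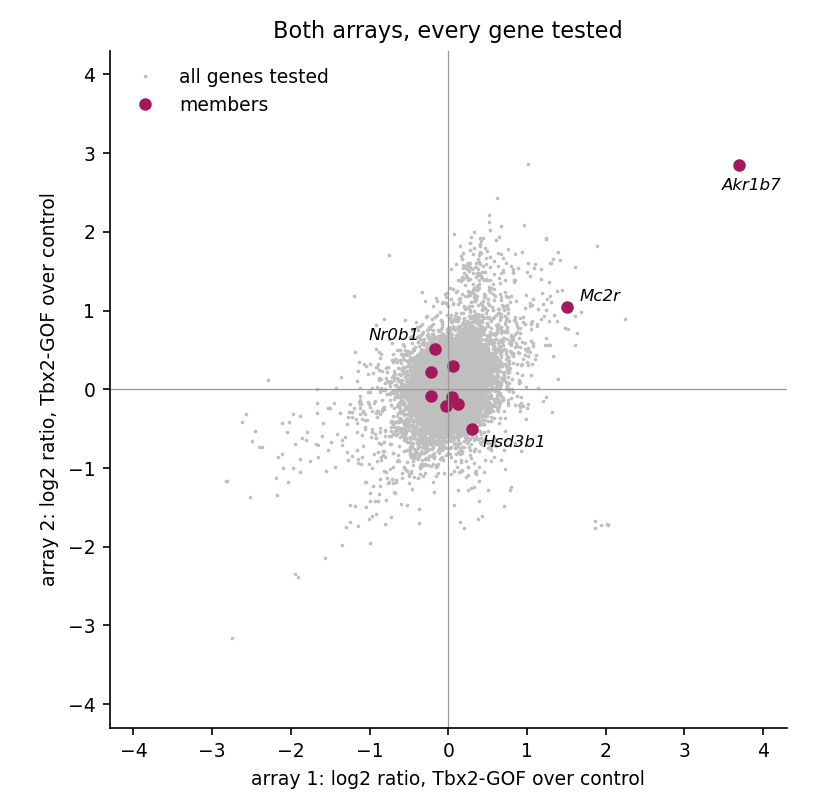
Log2 ratio of Tbx2-GOF over control on array 1 (horizontal) and array 2 (vertical) for all 21097 genes tested (grey) and the 10 members (coloured). Akr1b7 lies at the upper right, apart from all other genes, Mc2r lies in the upper right quadrant, and the other members lie in the central cloud.

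The 5 genes whose pair of log2 ratios lay nearest to that of Akr1b7, by Euclidean distance over the 2 arrays, were Six2, Xist, Lrriq1, Fabp7 and Gdnf. Six2, a transcription factor of nephron progenitors, was nearest, at a distance of 2.08, with ratios of 1.89 and 1.82 (limma adjusted p = 0.00624). Xist, the RNA of the inactive X chromosome, followed at 2.44, with Lrriq1 at 2.45, Fabp7 at 2.55 and Gdnf at 2.57. The calls of genes that are not members, here and below, were all lost with median centring, with the deposited value table and with the processed signals. Under each of these 0 genes passed limma's adjusted threshold, and 1219 to 2060 had an unadjusted p under 0.05. Those of Akr1c14, Foxd1, Pax8, Th and Wnt4 were also lost with a normexp offset of 0, and that of Lhx9 with the mean of its probes. All samples were labelled male, yet the brighter of 2 kept Xist probes read 97.7 against 1.87 on array 1 and 12.1 against 2.71 on array 2, where the highest negative control of the Tbx2-GOF channel was 15.4. The other probe had log2 ratios of 1.49 and 0.18, and its Tbx2-GOF signal on array 2, 8.84, lay below that control spot too. For both probes the control signal did not clear the background call on either array. With the control set to the lowest level called above background, the mean of Tbx2-GOF was 2.19-fold and 1.65-fold higher. These folds depend on that level and are not lower limits. The Y-linked genes Ddx3y (-0.25 and -0.33) and Eif2s3y (-0.03 and -0.14) were bright in both groups. Whether the Xist signal and that of Akr1b7 share a source was not tested.

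The genes beside Akr1b7 on chromosome 6 did not share its ratio. Within 500 kb the array held 22 probes, of which 16 were kept, and none of the 12 other measured genes was past 1.5-fold on both arrays. The mean ratios of the other kept probes ran from -0.09 to 0.24, with a median of 0.03. Akr1b10, the nearest relative on the chromosome, had log2 ratios of 0.19 and 0.15, Akr1b8 had 0.15 and 0.00, and Akr1b3, aldose reductase, had -0.15 and 0.17. These relatives encode similar proteins. Around Mc2r, 7 of 12 probes were kept, and the 4 other genes ran from -0.25 to 0.07.

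**Figure D4:**
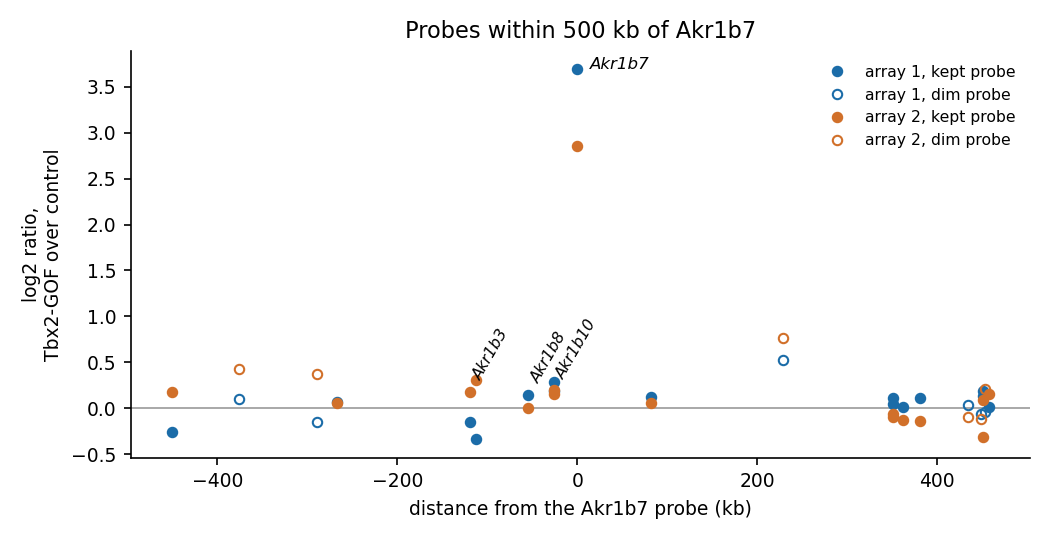
Log2 ratio of Tbx2-GOF over control (vertical) against distance from the Akr1b7 probe in kb (horizontal) for probes within 500 kb, on both arrays; open points are dim probes. Akr1b7 stands at 3.69 and 2.85, and the labelled relatives Akr1b3, Akr1b8 and Akr1b10 lie near 0.

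The RefSeq table (GRCm38.p6) held promoters for 5 of the 10 members, in 6 windows. The 250 bases before the start site of Akr1b7 (chr6:34412112-34412361, plus strand) are shown, since this gene had the highest ratio, with the 1 match to AAGGNCA, the half-site bound by NR5A1, in capitals on the reverse strand.
Akr1b7 promoter: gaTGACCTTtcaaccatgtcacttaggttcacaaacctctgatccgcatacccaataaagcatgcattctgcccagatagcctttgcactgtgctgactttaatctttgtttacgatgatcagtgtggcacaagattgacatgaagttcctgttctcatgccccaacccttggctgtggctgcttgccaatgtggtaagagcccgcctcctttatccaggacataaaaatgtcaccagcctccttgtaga
Both strands were searched. AAGGNCA occurred in 17.5% of the 32851 promoter windows of this length. The T-box half-site GGTGTGA, in 3.33% of windows, was not among the letters of the Akr1b7 window, and neither were TGACGTCA, the cAMP response element, in 1.55%, nor TATAAA, the TATA box, in 12.4%. Among the other members Cyp11a1 had 1 GGTGTGA and Nr0b1 had 1 TATAAA. These are letter matches only.

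Other steps of the pathway were read from lists chosen with earlier results known. Of 22 other steroid synthesis enzymes 18 were measured, and none passed the limma test, with 3 at an unadjusted p under 0.05. Over all genes tested that share was 9.34%. Hsd11b2, which inactivates corticosterone, was highest at a mean of 0.68 (adjusted p = 0.134), followed by Sts, the steroid sulphatase, at 0.52. Sult1e1, an oestrogen sulphotransferase, was lowest at -0.45, with its Tbx2-GOF channel above background on 1 array, and Hsd3b2 was at -0.27. Cyp17a1, needed for androgen synthesis, was at 0.06, and all probes of Cyp11b2, the aldosterone synthase, were dim. The list's median log2 ratios were 0.04 and -0.04 on the arrays. Of 26 genes of cholesterol supply none passed the limma test (3 at an unadjusted p under 0.05), and their medians were -0.10 and 0.01. They ran from -0.45 for Cyp51 and -0.35 for Insig1, of cholesterol synthesis and its feedback, to 0.13 for Stard3 and 0.14 for Soat1. Of 18 measured genes of ACTH and cAMP signalling none passed either (2 at an unadjusted p under 0.05). Their medians were 0.08 and 0.13, and 10 were higher on both arrays and 1 lower. Over all genes tested, the arrays shared a sign, in either direction, for 51.2%. Gnas, the stimulatory G protein, was at 0.34, Prkar1b at 0.44, Creb1 at -0.27 and Pomc, the ACTH precursor, at -0.02. Mrap, without which Mc2r does not reach the cell surface, had only dim probes.

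A list of 22 genes held transcription and growth factors of the adrenal cortex and some genes that are neither. Of these 22, 7 had an unadjusted p under 0.05, against 9.34% of all genes tested. In limma's adjusted test 2 rose and none fell. The 2 were Rspo1, a WNT enhancer of the adrenal capsule, at 1.21 (limma adjusted p = 0.0237), and Wnt4 at 1.12 (limma adjusted p = 0.0398). Both genes are active in embryonic kidney and gonad too. Sall1 was lowest at -0.46, Gata4 was at -0.26, Gata6 at -0.22 and Wt1 at 0.09. Of 11 measured aldo-keto reductases, apart from Akr1b7, Akr1c14 fell by 0.93 (adjusted p = 0.0418), and 2 had an unadjusted p under 0.05. Akr1c19 was at -0.30 and Akr1c18 at 0.35, and the list's medians were 0.15 and -0.10.

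Markers of other tissues that could hold Akr1b7 or Mc2r were read beside these values. Some genes stand in more than 1 list, so the lists are not separate readings. Of all genes tested, 9.34% had an unadjusted p under 0.05 and 0.64% passed limma's adjusted test. Over all genes tested, the arrays shared a sign, in either direction, for 51.2%. Of 12 measured renin cell genes 4 were higher on both arrays and 2 lower, and 5 had an unadjusted p under 0.05. In limma's adjusted test 1 fell, Foxd1, a stromal factor, by 0.98 (adjusted p = 0.0471). Aldh1a2 was at 0.71 and Rgs5, a pericyte gene, at 0.47. Ren1, renin itself, was at 0.08 on array 1 and -1.48 on array 2, and Ren2 was at 0.20 and -1.76. The Ren1 signals were 137 against 136 on array 1 and 161 against 476 on array 2, so that the control on array 2 stood apart from the other 3 channels. Genes of the adrenal medulla and sympathetic neurons were higher on both arrays for 18 of 20, with medians of 0.51 and 1.64, and 18 had an unadjusted p under 0.05. Th, which starts catecholamine synthesis, rose by 1.34, from 0.935 and 1.744 on the 2 arrays (limma adjusted p = 0.0431). Scg2 rose by 1.57, from 1.237 and 1.906 (limma adjusted p = 0.0267). Cartpt, a neuropeptide gene, was highest at 1.94, from 1.008 and 2.865 (limma adjusted p = 0.0809). Dbh was at 1.07, from 0.476 and 1.663, and Pnmt, which makes adrenaline, at 0.33. Gata2 and Eya1, at -0.03 and 0.04, were the lowest. The summed processed signal of this list was 72400 against 53970 on array 1 and 69770 against 29400 on array 2. The sum of the control on array 2 was thus the lowest. The part of all these cells in the ratios of Akr1b7 and Mc2r was not tested.

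Of 13 measured fetal Leydig and Sertoli genes 3 had an unadjusted p under 0.05, and 1, Lhx9, fell in limma's adjusted test (adjusted p = 0.0398). Its Tbx2-GOF channel was above background on 1 array only, so it entered the test through the control, and its mean ran from -1.67 to -0.69 over the alternatives. Sox8 was at 0.41 and Dhh at 0.37. All probes of Amh and Hsd17b3 were dim. Of 6 measured germ cell genes none passed the test (1 at an unadjusted p under 0.05), and Sox2, which neural cells also express, was highest at 0.91 (adjusted p = 0.116). Mael was at 0.02, Kit at -0.10 and Ddx4 at -0.15. Wolffian duct and mesonephros genes were higher on both arrays for 10 of 12. Of all genes tested, 51.2% shared a sign, in either direction. The Wolffian duct list had medians of 0.45 and 0.54, and 8 of its genes had an unadjusted p under 0.05. The median of their means was 0.50, and 0.21 without the brightness filter. Of 17 listed genes 12 were measured, and all probes of Crisp1, a marker of this list, were dim. Pax8 rose by 0.95 (limma adjusted p = 0.0398), Lhx1 was at 0.81, and Spink8 and Hoxa10, both at 0.15, were lowest. Pax2 was at 0.18 and 0.23, from signals of 35.1 against 23.9 on array 1 and 34 against 26.7 on array 2. The summed processed signal of this list was 24010 against 17990 on array 1 and 21810 against 15400 on array 2. Its brightest genes were Hox genes. Ureter genes had medians of -0.09 and -0.03, and 6 of 20 had an unadjusted p under 0.05. Upk3a, a urothelial plaque gene, fell by 0.86 (adjusted p = 0.0450), whereas Upk2, another, was at 1.05 and 0.62 and Gata3 at 0.63 and 0.83, both past 1.5-fold on both arrays. Neither passed limma's adjusted test. The control signals of Upk2, 10.4 and 13.1, lay below the highest negative control spots, 29.6 and 18. Its mean ran from 0.83 to 1.70 over the alternatives. Gata3 is also in the medulla and Wolffian duct lists. Of 15 nephron progenitor and stroma genes 11 had an unadjusted p under 0.05, against 9.34% of all genes tested. In limma's adjusted test 3 rose, Six2, Gdnf and Uncx, and 1 fell, Foxd1, which is also in the renin list. Over all genes tested 0.64% passed that test. Wt1, Sall1, Eya1 and Tbx18, of this list, stand in other lists too. Crym was at -0.50. The part of these tissues was not tested either.

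**Figure D5:**
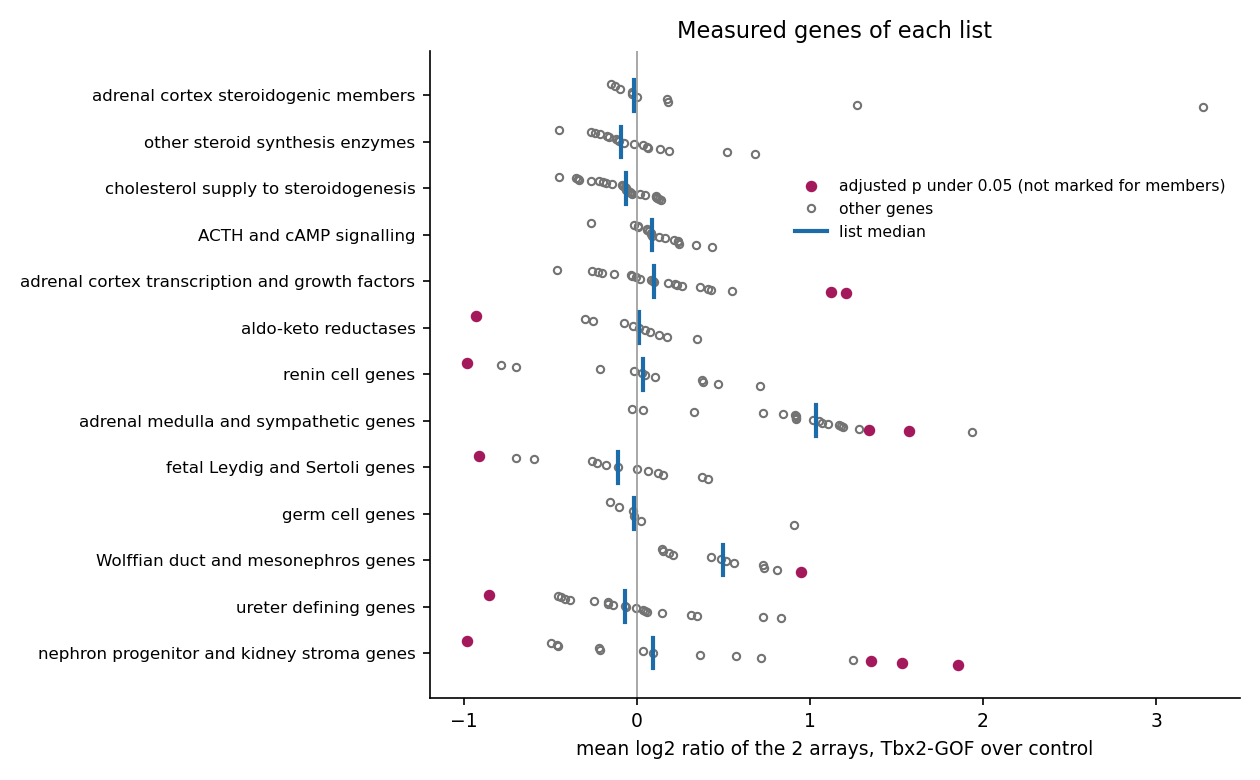
Mean log2 ratio of Tbx2-GOF over control (horizontal) for each measured gene of the 13 lists, with bars at list medians. Outside the member list, filled points passed limma's adjusted p under 0.05. Fill is not used for the members, of which Akr1b7 and Mc2r passed. The medulla and sympathetic list and the Wolffian duct list lie to the right of 0, and the steroid enzyme and cholesterol lists are centred near 0.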

How the data were processed

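Total RNA was amplified, labelled and hybridised to 2 dye-swapped arrays. Per the submitters' processing notes, the scans went through Agilent Feature Extraction 10.7.3.1. Spot means and local backgrounds are, per the file headers, unnormalized intensity values, while processed signals are intensity after background subtraction, detrending and dye normalization by the software. The deposited software ratio is a log10 value, red against green. The authors' deposited value table holds signed linear fold ratios. Neither scale, centring nor direction is stated for it, and it served only as an alternative.

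Log2 ratios were computed here with limma 3.58.1 in R 4.3.3: normexp correction (offset 50), loess (span 0.3), and no scaling between arrays. Spots marked as outliers were dropped, and replicate spots were averaged per probe. Probes stayed in where the same group cleared the background call on each array (26471 probes), and each gene took its brightest kept probe. lmFit and eBayes tested 21097 genes, two-sided, with Benjamini-Hochberg adjustment at 0.05; 135 passed, 76 higher and 59 lower, and 1970 had an unadjusted p under 0.05. The arrays' ratios correlated at 0.308 across genes, which are not independent replicates. The lmFit and eBayes step alone was tried on simulated log2 ratios. Background correction, loess, the brightness filter and the choice of probe were not part of that trial. The number of arrays limits the precision.

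The members and the gene lists were chosen with earlier results of these data known. Named genes were all members, the 5 genes nearest to Akr1b7, and, per list, genes past the test, the 2 farthest up and down, and defining markers, of which 1 is not reported here. Alternatives covered background correction, normalization, the deposited table, the brightness filter, the choice of probe and the variance model. Probe coordinates are on mm9, as in the scanner files; no genome was used here.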

Additional observations from a re-analysis of the deposited data

How the results depend on the processing

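Akr1b7 kept its direction under all 9 alternatives with both arrays, between 3.27 and 3.40. Mc2r lay between 1.27 and 2.59 under the 8 that measured it, and the strict filter, which asks for both groups above background, left out Mc2r and Nr0b1. Nr5a1 changed sign under 2 of 9 alternatives, between -0.02 and 0.08; no other member did. The count of genes past limma's threshold, 135 with the main settings, was 0 (0 higher, 0 lower) with median centring in place of loess, with the deposited value table and with the software's own processed values, where 1219, 2060 and 2055 genes had an unadjusted p under 0.05. Neither Akr1b7 nor Mc2r passed there. The count was 313 (197 higher, 116 lower) with scaling between arrays, 276 (167 higher, 109 lower) without the brightness filter, and 211 (124 higher) with the mean of a gene's probes. Genes past 1.5-fold on both arrays numbered 289, against 544 with processed signals and 474 with the deposited table. With 1 array left out, 752 to 1230 genes were past 1.5-fold on the remaining array. The cause of these shifts was not tested. Of the other named genes' 528 values, which hold none for Pax2, 77 kept a call, 48 lost one, 13 gained one and 0 called ones changed sign. Each array pairs 1 Tbx2-GOF with 1 control extract, so every ratio and every limma test here already rests on that pairing. There is 1 group of 2 arrays.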
